A study of Drosophila melanogaster with 2 samples.

Results

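The small nucleolar RNA (snoRNA) genes of Drosophila melanogaster and the genes that hold them were examined in a ChIP-seq map of CG6654, a zinc finger protein of the ZAD family. The set comprised the 257 genes, of 18277 in the Ensembl BDGP6 annotation, whose symbol begins with snoRNA:. They carried 1 annotated start each and were between 46 and 511 bp long, with a median of 134 bp. A host was defined as a protein-coding or non-coding gene on the same strand whose span holds the whole snoRNA gene. By that rule 236 snoRNA genes had a host, 21 had none, and the hosts numbered 84, of which 74 are protein-coding. The embryos came from 1 transgenic fly line stably carrying CG6654 with GFP at its C terminus, and chromatin was precipitated with an antibody against GFP. Whole embryos of mixed sex, 0 to 12 h old, gave 2 biological replicates, numbered 1 and 3, of a single group, so no contrast between groups exists. The values are averages over all cell types and stages of these embryos, and they describe the tagged protein. The lists carry no read totals, so depth is unknown, and the control named in the labels was not analysed here.

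snoRNAs guide the modification of ribosomal and spliceosomal RNAs. Box C/D snoRNAs direct 2'-O-methylation through the methyltransferase fibrillarin, and box H/ACA snoRNAs direct pseudouridylation through dyskerin, which in flies is Nop60B. Most fly snoRNAs are cut out of introns of a host transcript, so the annotated start of such a gene is the processed 5' end of the RNA and not a promoter. Many hosts encode ribosomal proteins, while the Uhg genes (U snoRNA host genes) are non-coding hosts whose spliced RNA serves mainly as a carrier. U3 snoRNA is, in animals, generally transcribed from promoters of its own.

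Sequences of 4 snoRNA genes whose start lay within 500 bp of a reproducible CG6654 peak show which RNAs are concerned. They are given 5' to 3' from the RefSeq Release 6 genome (dm6), and capitals mark the C box core TGATGA and the D box CTGA, or the ACA box.
snoRNA:Me28S-A774b: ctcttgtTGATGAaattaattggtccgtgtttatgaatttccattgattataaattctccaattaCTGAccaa
snoRNA:U49:66Da: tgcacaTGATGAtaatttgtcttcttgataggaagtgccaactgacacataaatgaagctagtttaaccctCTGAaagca
snoRNA:Psi18S-1275: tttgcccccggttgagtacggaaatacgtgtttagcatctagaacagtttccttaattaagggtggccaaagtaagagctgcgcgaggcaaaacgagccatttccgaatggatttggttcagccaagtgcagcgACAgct
snoRNA:Psi18S-920: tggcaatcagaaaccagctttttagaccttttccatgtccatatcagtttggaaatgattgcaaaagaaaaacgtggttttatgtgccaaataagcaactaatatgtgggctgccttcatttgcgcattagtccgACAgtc
The first lies at chr3L:13023580-13023652 in an intron of RpS12 and the second at chr3L:8601473-8601552 in an intron of RpL14, both on the plus strand. The third lies at chr3R:9778398-9778537 in an intron of RpS29 and the fourth at chr3L:11822984-11823124 in an intron of RpL10Ab, again on the plus strand. Among the 93 snoRNA genes whose symbols mark them as methylation guides or orphan box C/D RNAs, 65 held TGATGA within their first 25 bases and 83 held CTGA within their last 15. Among the 115 named as pseudouridylation guides or orphan H/ACA RNAs, 108 held ACA within their last 8 bases.

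At 6 bound snoRNA genes, the 4 above and those of RpL28 and RpL17, the summit lay within 500 bp of the start of a ribosomal protein host. The bases upstream of the host start nearest to the summit are shown for all 6 hosts (dm6, 5' to 3' in the direction of the host). Each window holds 120 bases, except 98 for RpS29, whose window stops at an annotated untranslated region. Capitals mark the word TATCGATA, the core of the DNA replication-related element (DRE), which is its own reverse complement and is the site of the factor DREF.
RpS12 upstream: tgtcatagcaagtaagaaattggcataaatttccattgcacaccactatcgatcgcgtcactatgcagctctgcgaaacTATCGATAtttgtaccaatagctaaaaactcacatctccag
RpL28 upstream: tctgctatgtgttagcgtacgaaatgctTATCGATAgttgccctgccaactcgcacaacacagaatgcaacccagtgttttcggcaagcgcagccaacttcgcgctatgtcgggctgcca
RpL10Ab upstream: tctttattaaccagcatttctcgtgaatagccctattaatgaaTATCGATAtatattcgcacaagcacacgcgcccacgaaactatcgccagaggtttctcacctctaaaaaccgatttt
RpL14 upstream: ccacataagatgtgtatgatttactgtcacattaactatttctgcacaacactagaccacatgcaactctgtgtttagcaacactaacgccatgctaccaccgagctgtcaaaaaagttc
RpS29 upstream: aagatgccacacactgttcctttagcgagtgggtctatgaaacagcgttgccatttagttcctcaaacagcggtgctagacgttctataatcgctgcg
RpL17 upstream: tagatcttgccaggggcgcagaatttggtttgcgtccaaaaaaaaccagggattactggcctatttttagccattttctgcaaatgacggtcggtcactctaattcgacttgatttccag
The windows lie at chr3L:13023232-13023351 on the plus strand for RpS12, chr3L:3222961-3223080 on the minus strand for RpL28, chr3L:11822731-11822850 on the plus strand for RpL10Ab and chr3L:8600886-8601005 on the plus strand for RpL14. Those of RpS29 and RpL17 lie at chr3R:9777944-9778041 on the plus strand and chrX:6744239-6744358 on the minus strand. The word was in the windows of RpS12, RpL28 and RpL10Ab and not in those of RpL14, RpS29 and RpL17. Within 50 bp of the summit, counted below, the word was also at RpS29, outside the upstream window shown, and not at RpL10Ab. The summit lay 32 bp upstream of the start of RpS12, 64 bp upstream of that of RpL28, 20 bp upstream of that of RpL14, 4 bp upstream of that of RpS29 and 70 bp upstream of that of RpL17, within the windows shown. At RpL10Ab it lay 274 bp upstream, beyond the window shown.

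Few snoRNA genes had a peak of the authors' reproducible set at their start. Not every peak of that set overlapped a region in both replicate lists, as given below. The authors' set chosen by the irreproducible discovery rate (IDR) holds 2962 peaks, and a gene is called bound here when the summit of one of them lies within 500 bp of any of its annotated starts. By that rule 11 of 257 snoRNA genes were bound, which is 4.28% with a 95% Wilson interval of 2.41 to 7.5%, and the share of all genes was 9.13%. Of the 11, 4 are pseudouridylation guides, 2 are orphan H/ACA RNAs, 2 are orphan box C/D RNAs and 1 is a methylation guide. The remaining ones are snoRNA:U49:66Da, a box C/D RNA, and snoRNA:abba-a. The interval covers counting over genes only, and clustered snoRNA genes are not independent.

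The other lists, which the authors ranked without a threshold and which hold 30000 regions each, gave the same order. In the pooled list 37 snoRNA genes (14.4%) had a summit within 500 bp, against 34% of all genes. In the replicate 1 list 19 snoRNA genes (7.39%) did, against 25.3% of all genes. In the replicate 3 list 64 snoRNA genes (24.9%) did, against 41.6% of all genes. The replicates thus differed in how many snoRNA genes they reached, and 10 snoRNA genes (3.89%) had a region in both, against 15.6% of all genes. No region in any of the 4 lists was found for 182 snoRNA genes, while 34 had one in replicate 3 alone and 3 in replicate 1 alone. Only 6 snoRNA genes had a summit within the window in all 4 lists.

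The share of bound snoRNA genes depended on how far from the start a summit was sought. Within 100 bp no snoRNA gene had an IDR summit, and 2.28% of all genes had one. A count of 0 of 257 allows a share of up to 1.17% when 3 counts are taken as its limit, and the Wilson interval reaches 1.47%. Within 250 bp 1 snoRNA gene did, against 6.47% of all genes. The snoRNA genes stayed below the gene average up to 750 bp, where 22 (8.56%) had a summit against 10.6% of all genes. From 1000 bp on they exceeded it, with 39 (15.2%) against 11.6% of all genes at 1000 bp and 87 (33.9%) against 15.8% at 2000 bp. The 74 protein-coding hosts behaved otherwise, since 45.9% of them already had a summit within 500 bp. The median distance to the nearest IDR summit was 4725 bp for snoRNA starts and 1764 bp for host starts, against 14241 bp for starts of all genes.

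**Figure D1:**
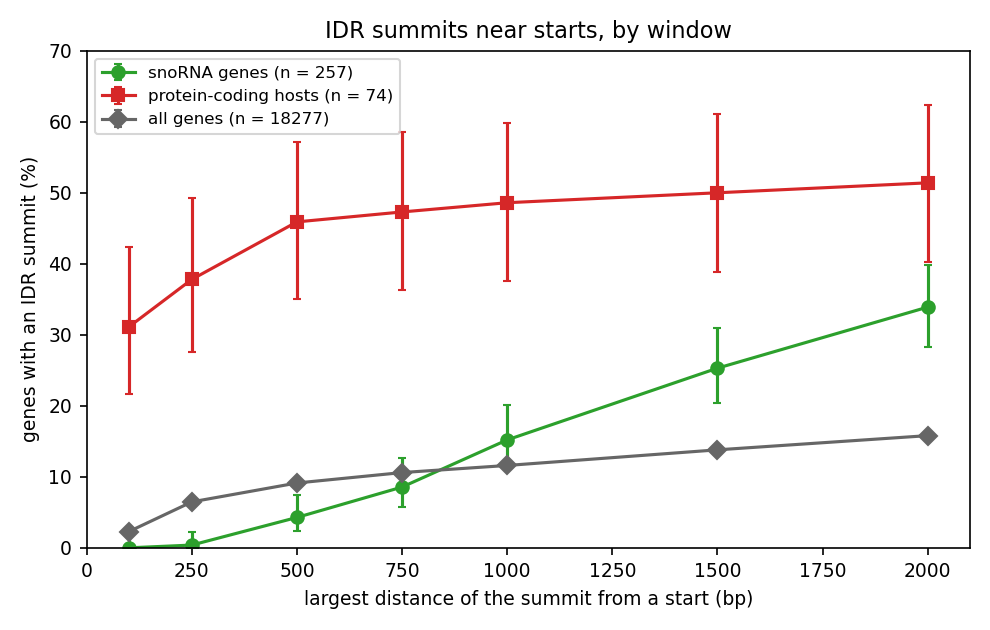
Share of genes (%) with an IDR summit within a given distance (bp) of an annotated start, for snoRNA genes, protein-coding hosts and all genes; bars are 95% Wilson intervals. The snoRNA genes start at 0 of 257 within 100 bp and pass the all-gene line between 750 and 1000 bp, while the hosts lie above both at every distance.

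No IDR region covered a snoRNA gene. The start base lay inside an IDR region for 0 of 257 snoRNA genes, against 4.26% of all genes, and it did so for 29 of 84 hosts (34.5%). No part of any snoRNA gene was overlapped by an IDR region either. In the pooled list a region covered the start base of 3.89% of snoRNA genes, against 18.1% of all genes. In replicate 1 the share was 1.56% of snoRNA genes against 11.5% of all genes, and in replicate 3 it was 9.34% against 26.4%. Some snoRNA genes exist in near-identical copies, on which short reads may not be placed uniquely. Words of 36 bases were counted, a length set here and not compared with the length of the reads. All 36-base words were single-copy in 209 of 257 snoRNA genes, and 8 had 50% or more of their words repeated. Among the 11 bound snoRNA genes 1, snoRNA:Or-CD11a, held a repeated word, and the part of repeats in the counts was not tested.

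The 11 bound snoRNA genes lay beside 10 distinct peaks, because the Uhg4 pair snoRNA:Psi28S-2949 and snoRNA:Or-aca5 have one in common. At 6 of the 10 peaks the summit also lay within 500 bp of the start of a protein-coding gene, and in each case this included the ribosomal protein gene that hosts the snoRNA. A further peak lay at the start of the non-coding host Uhg4, which makes 7 peaks at a host start. The other 3 peaks lay within 500 bp of no host and no protein-coding start. How many of all IDR peaks lie at a protein-coding start was not counted, so 6 of 10 has no share to stand beside. The summit was upstream of the snoRNA gene for 10 of the 11, and it was nearer to the snoRNA start than to the host start for 2 of them, snoRNA:Or-CD4 and snoRNA:abba-a.

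**Figure D2:**
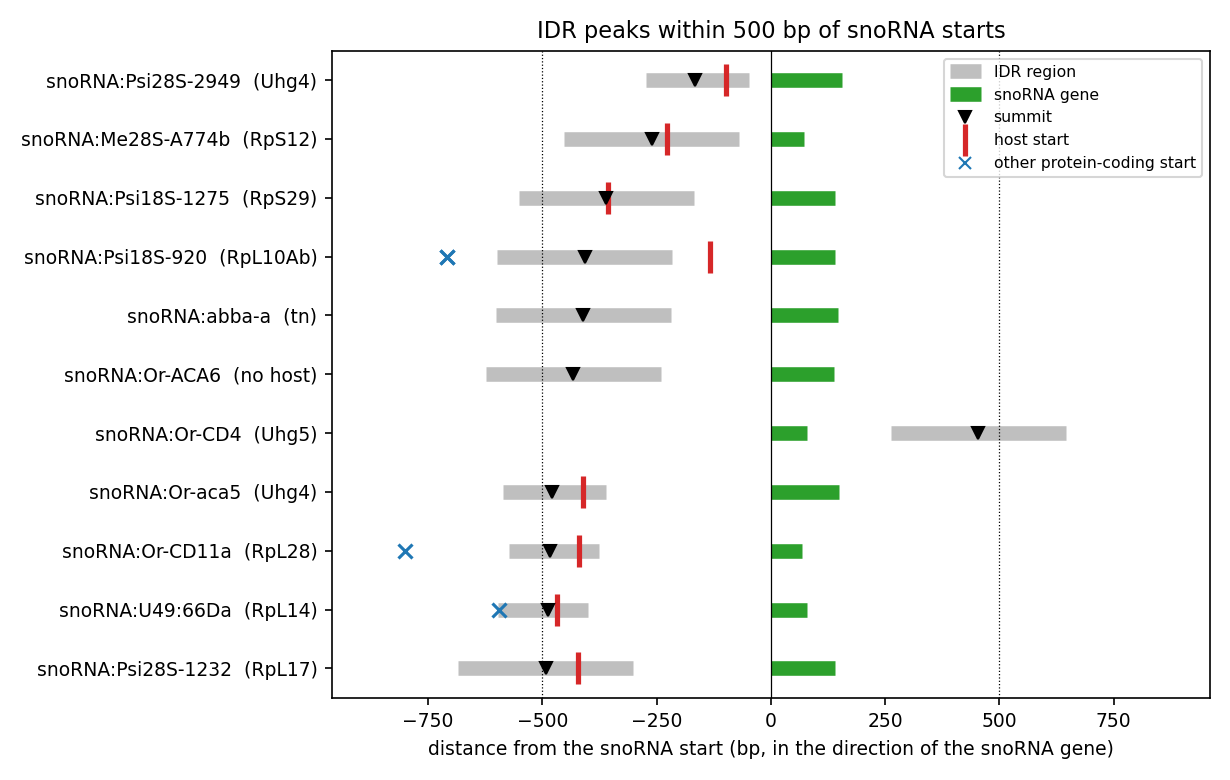
The 11 bound snoRNA genes aligned at their start (0 bp, x axis in bp in the direction of the snoRNA gene), with the IDR region, its summit, the nearest host start where it lies within 500 bp of the summit, and other protein-coding starts within 500 bp of the summit; dotted lines mark 500 bp. All regions but that of snoRNA:Or-CD4 lie upstream of the snoRNA gene, and 8 rows show a host start near the summit.

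The peaks at ribosomal protein hosts covered a wide range of signal, the authors' score for a region, which has no stated scale and is used here only to rank regions within a list. The highest was beside snoRNA:Or-CD11a, an orphan box C/D RNA in RpL28, with a signal of 272 and rank 493 of the IDR list. Its summit lay 483 bp upstream of the snoRNA start, 64 bp upstream of the RpL28 start and 317 bp from the start of eIF1, which encodes a translation initiation factor and is read in the other direction. In replicate 3 the region had a signal of 147 and rank 572, and in replicate 1 no region overlapped it. Both starts lie within 500 bp of this summit, while the IDR region covered the RpL28 start and not that of eIF1. Which of these genes the binding concerns was not tested.

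For snoRNA:U49:66Da in RpL14 the signal was 227 (rank 634), with the summit 487 bp upstream of the snoRNA start and 20 bp upstream of the RpL14 start. Nelf-E, which encodes a subunit of the negative elongation factor, started 107 bp from the same summit. The IDR region covered the starts of both RpL14 and Nelf-E, so binding at one and at the other cannot be told apart. Both replicates held the region, with a signal of 71.1 (rank 970) in replicate 1 and 145 (rank 590) in replicate 3. The replicate summits lay 510 and 504 bp from the snoRNA start, just past the 500 bp window, so this snoRNA gene counted as reached by neither replicate list.

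snoRNA:Psi18S-920 in RpL10Ab had a signal of 152 (rank 1176) and a summit 407 bp upstream of its start. That summit was 274 bp upstream of RpL10Ab and 302 bp from the starts of CG11597 and CG5946. The IDR region covered none of these starts. Here replicate 1 ranked the region higher, at 674 with a signal of 91.1, than replicate 3, at 1887 with a signal of 66.2.

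The remaining 3 ribosomal protein hosts had lower peaks. snoRNA:Psi28S-1232 in RpL17 had a signal of 117, with the summit 493 bp upstream of the snoRNA start, 70 bp upstream of the RpL17 start and 235 bp from tRNA:Phe-GAA-1-2. snoRNA:Me28S-A774b in RpS12, a methylation guide, had a signal of 103, with the summit 260 bp upstream of the snoRNA start and 32 bp upstream of RpS12. snoRNA:Psi18S-1275 in RpS29 had a signal of 75.7, close to the lowest of the IDR list, with the summit 360 bp upstream of the snoRNA start and 4 bp from the RpS29 start. All 3 were found in both replicates, but the RpS29 region ranked 3332 in replicate 1 and 3371 in replicate 3, outside the first 2962 of either list. The RpS12 region ranked 1643 in replicate 3 and 4111 in replicate 1.

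Uhg4 was the bound non-coding host beside a bound snoRNA gene. Its peak had a signal of 254 (rank 538), with the summit 67 bp upstream of the Uhg4 start, 166 bp upstream of snoRNA:Psi28S-2949 and 479 bp upstream of snoRNA:Or-aca5. The region was high in both replicates, with a signal of 100.97 (rank 577) in replicate 1 and 160 (rank 495) in replicate 3. snoRNA:Psi28S-2949 was the only snoRNA gene with an IDR summit within 250 bp, and it begins 99 bp inside Uhg4. The nearest protein-coding start, that of Boot, lay 548 bp from the summit, just beyond the window.

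At 3 peaks neither a host nor another protein-coding start lay within 500 bp. The peak beside snoRNA:Or-ACA6, which has no host on its own strand, had a signal of 100.96 and lay 433 bp upstream of it inside the gene egr, which encodes the tumour necrosis factor ligand eiger. The next starts were those of snoRNA:Or-CD13 at 564 bp and scaRNA:MeU1b-A234, a guide RNA of Cajal bodies, at 834 bp. The peak beside snoRNA:Or-CD4 had a signal of 80 and was the only one downstream of its snoRNA gene, at 454 bp. That summit lay 3106 bp from the start of the non-coding host Uhg5, and the nearest protein-coding start, of CG12863, was 3387 bp away. The peak beside snoRNA:abba-a had a signal of 80.6 and lay 410 bp upstream, inside the muscle gene tn and 3249 bp from its start. In the replicates snoRNA:Or-ACA6 had regions of signal 32.7 and 67.6 in replicates 1 and 3, and snoRNA:abba-a had 41.4 and 36.3 in replicates 1 and 3. The summits of both overlapping replicate regions at snoRNA:Or-ACA6 lay 516 bp from its start, outside the window. snoRNA:Or-CD4 had a region of 45.2 in replicate 3 and none in replicate 1.

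Across the 10 peaks, a replicate 3 region overlapped all 10 and a replicate 1 region 8. Within the first 2962 regions by rank, as many as the IDR list holds, there were 7 in replicate 3 and 6 in replicate 1. The median signal at the bound snoRNA genes was 117 in the IDR list, with a range of 75.7 to 272, against a median of 141 at all bound genes. The first 2962 regions of replicate 1 alone reached 5 snoRNA genes, 4 of them among the 11, and those of replicate 3 reached 9, 6 of them among the 11. The share of all genes that these regions reach was not counted.

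**Figure D3:**
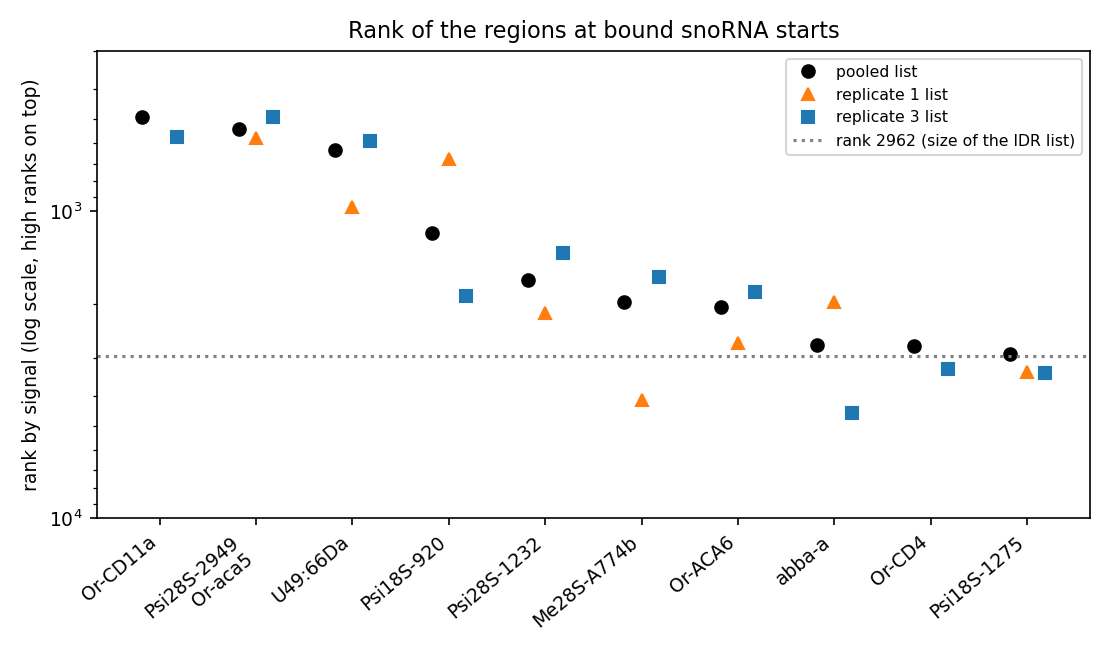
Rank by signal (log scale, best ranks on top) of the regions at the 10 peaks beside bound snoRNA genes, in the pooled, replicate 1 and replicate 3 lists; the dotted line is rank 2962, the size of the IDR list. Peaks are ordered by pooled signal; the peaks of snoRNA:Or-CD11a and snoRNA:Or-CD4 have no replicate 1 point, and that of snoRNA:Psi18S-1275 lies below the line in both replicates.

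Hosts were bound more often than snoRNA genes and than protein-coding genes at large. Of the 84 hosts, 36 were bound (42.9%, interval 32.8 to 53.5%). Among the 74 protein-coding hosts 34 were bound (45.9%, interval 35.1 to 57.2%), against 10.9% of all protein-coding genes. The median signal at bound hosts was 149, and it was 142 at all bound protein-coding genes. In the pooled list 58 of the 74 (78.4%) had a region, against 37.1% of protein-coding genes. In replicate 1 29 of them (39.2%) did, against 26.6% of protein-coding genes. In replicate 3 62 of them (83.8%) did, against 46% of protein-coding genes. The 2 replicates thus differed for hosts as they did for snoRNA genes and for protein-coding genes at large. Of the 36 bound hosts all had a replicate 3 region while 23 had a replicate 1 region. These counts were not made for all bound genes, so they are not a trait of hosts.

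Ribosomal protein genes made up most of the bound hosts. They encode the proteins of the ribosomal subunits, and 29 of them held 76 snoRNA genes. Of these hosts 23 were bound (79.3%, interval 61.6 to 90.2%), while 33 of the 64 ribosomal protein genes that hold no snoRNA were bound (51.6%, interval 39.6 to 63.4%). The intervals overlap, and the difference was not tested. Both groups were chosen by symbol, and paralogues were not set apart. Of the other 45 protein-coding hosts 11 were bound (24.4%, interval 14.2 to 38.7%), and among protein-coding genes that are no host 10.7% were. The classes differed also in where the summit lay, at a median of 37 bp from the start in bound ribosomal protein hosts and 212 bp in the other bound protein-coding hosts. Among the 23 bound ribosomal protein hosts 21 had the summit within 100 bp of the start and 19 had it upstream. A summit within 100 bp was also found for 29 of the 33 bound ribosomal protein genes that hold no snoRNA. Of the 1524 bound protein-coding genes 395 had one that close. The share with the summit upstream was not counted for these genes. Signals overlapped between the classes, with medians of 146 and 158 and ranges of 75.7 to 272 and 81.3 to 389.

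**Figure D4:**
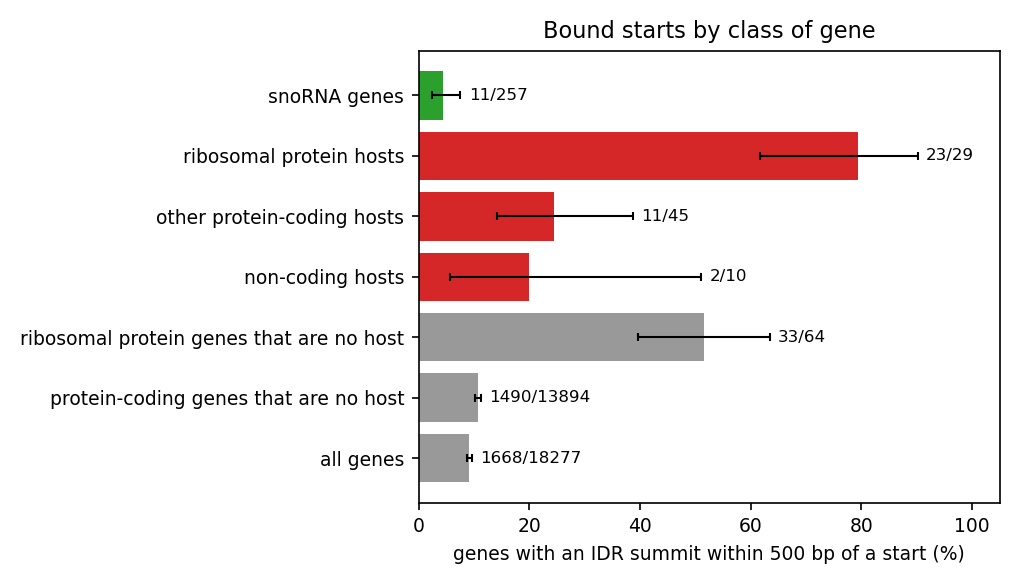
Share of genes (%) with an IDR summit within 500 bp of a start, by class, with 95% Wilson intervals and the counts beside the bars. Hosts that encode ribosomal proteins stand at 79.3%, snoRNA genes at 4.28% and all genes at 9.13%.

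The bound hosts of highest signal mixed both kinds. Stt3A, which encodes a subunit of the oligosaccharyltransferase and holds 2 snoRNA genes, was first with 389, its summit 388 bp upstream. A start of another protein-coding gene lay nearer to that summit, at 221 bp. The Stt3A region had 132 in replicate 1 and 254 in replicate 3. Msp300, a giant nesprin that ties nuclei to the cytoskeleton, followed RpL28 with 271, and its single snoRNA gene began 50634 bp downstream of the nearest upstream start. RpL23A (265), Uhg4 (254), RpL14 (227), RpL22 (207) and RpL13A (205) came next. All of these except RpL28 had a region in both replicates.

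Below them came drn (193), Dys, the dystrophin gene (184), RpS16 (180), lola, which encodes a family of BTB zinc finger proteins (175), and RpL4 (168). Irbp, the fly Ku70 gene, RpL27A and RpL30 had 158 each, and RpS4 (154), RpL10Ab (152), RpS5a (146) and RpL11 (140) closed the first 20. The Irbp summit lay 114 bp from the Irbp start and 58 bp from the start of another protein-coding gene. Starts of other genes near the remaining host summits are not given, except where described above. RpS16, lola, RpS5a and RpL11 had no region in replicate 1. Of the 36 bound hosts 31 had the summit upstream of the nearest start, 7 had a bound snoRNA gene and 29 had none.

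The unbound ribosomal protein hosts included RpL15, RpL36A, RpL5, RpS9 and RpS6. Each of these had a region at a start in replicate 3, with signals between 22.8 (RpS9) and 60.7 (RpS6), and RpL15 and RpL5 had one in replicate 1. The RpL15 region had a signal of 67.1 in the pooled list, below the lowest value of the IDR list, 74.8, and it also lay 148 bp upstream of snoRNA:Me18S-G1358c. That snoRNA gene was 1 of 3 with a region in the pooled list and both replicates but no IDR peak. The others were snoRNA:Psi18S-301, with no host and a pooled signal of 51.6, and snoRNA:Or-ACA9, in the metalloprotease gene AdamTS-A, with a pooled signal of 47.1.

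Of the 5 hosts with most snoRNA genes 1 was bound. Arpc2, which encodes a subunit of the actin-nucleating Arp2/3 complex, holds 17 snoRNA genes and had no IDR peak, with 47.1 in the pooled list, 32.2 in replicate 3 and no region in replicate 1. Uhg1 holds 16 and had a region only in replicate 3, with a signal of 26.6. The chromatin remodeller gene dom holds 15 and had 58.7 in the pooled list, 26.8 in replicate 1 and 36.9 in replicate 3. RpS5a, with 14, was the bound one, and Uhg5, with 11, had a region only in replicate 3, of 13.3. Of the 15 hosts with 5 or more snoRNA genes 6 were bound, and of the 45 with 1 snoRNA gene 15 were. The 7 Uhg genes together hold 48 snoRNA genes, and of these hosts Uhg4 and Uhg8, with a signal of 81.9, were bound.

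All 8 bound snoRNA genes inside bound hosts lay close to the start of the host. A snoRNA gene started at a median of 1433 bp from the nearest upstream start of its host, with a range of 0 to 50634 bp. Of the 33 within 500 bp of that start 19 had a bound host and 8 were bound themselves. A host counts as bound at any of its starts, which need not be the start measured. For example, snoRNA:Psi28S-1060 began 166 bp from a start of RpL17, but the nearest IDR summit lay 1307 bp away. Where 2 hosts hold a snoRNA gene, either may be the bound one. So snoRNA:Or-CD15 began 60 bp from the start of Uhg7, which was unbound, while its other host, RpL23A, was bound. Between 501 and 1000 bp 31 of 48 had a bound host, and from there to 2000 bp 31 of 70 did, with no bound snoRNA gene in either range. In all, bound hosts held 8 bound and 93 unbound snoRNA genes, and the nearest IDR summit lay at a median of 1316 bp from the starts of these genes. The 500 bp window fixes part of this pattern, since a peak at a promoter can reach only snoRNA genes near it.

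**Figure D5:**
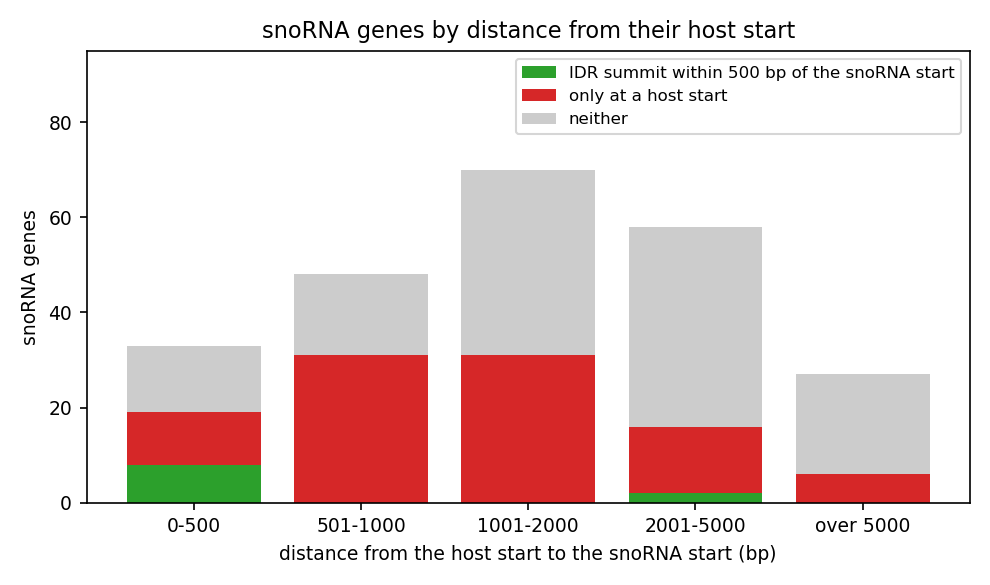
Number of snoRNA genes by distance (bp) from the nearest upstream host start, split into those with an IDR summit within 500 bp of their own start, those whose host alone is bound and the rest. A host counts as bound at any of its starts, not only at the start measured. The bound snoRNA genes fall in the 0 to 500 bp bin (8 of 33) and, with unbound hosts, in the next to last bin (2 of 58).

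Just outside the window, most snoRNA genes with a summit had a bound host. An IDR summit at 501 to 1000 bp was found for 28 snoRNA genes, of which 25 had a bound host, 25 had the summit upstream and 19 lay in ribosomal protein hosts. The nearest were snoRNA:Me18S-C1096 in RpL3 at 547 bp, snoRNA:Psi18S-1295 in RpS20 at 561 bp and snoRNA:Or-CD13, with no host, at 564 bp. snoRNA:Me28S-A2113 in RpL30 followed at 610 bp, then snoRNA:Me28S-G980 and snoRNA:M, both in the ribosomal protein gene sta, at 625 and 664 bp. snoRNA:Me18S-C1831 in RpL27A (667 bp), snoRNA:Or-CD11b in RpL28 (695 bp), snoRNA:Me28S-G2703c in Uhg5 (700 bp) and snoRNA:Me28S-G2173 in RpS16 (717 bp) completed the first 10. A bound host did not always have its own peak there. The summit near snoRNA:Me18S-G1358a in drn had a signal of 159 and lay 1952 bp from any protein-coding start. That near snoRNA:Me28S-U3344a in Stt3A had 98.6 and lay 648 bp from one. The peaks by which drn and Stt3A were bound had signals of 193 and 389. Of the 236 snoRNA genes with a host, 135 had an unbound one. Of the 26 IDR peaks within 1000 bp of snoRNA starts, 20 lay within 500 bp of a protein-coding start, and of the 39 within 2000 bp, 32 did. The same share was not counted for all IDR peaks.

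The snoRNA genes without a host included the U3 genes, looked at here because U3 is known to have its own promoters. snoRNA:U3:54Aa, snoRNA:U3:54Ab and snoRNA:U3:9B had no region within 500 bp in any of the 4 lists. The nearest IDR summit lay 118968, 117081 and 82207 bp away in that order. All 36-base words of snoRNA:U3:54Aa and snoRNA:U3:54Ab and 36% of those of snoRNA:U3:9B occur more than once in the genome, and the part of this in the missing regions was not tested. Of the 21 snoRNA genes without a host, snoRNA:Or-ACA6 was the one bound in the IDR list. By arm, the snoRNA genes numbered 93 on 2R, 49 on 3L, 44 on 3R, 40 on 2L, 30 on X and 1 on 4.

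Short words were then counted within 50 bp of the summits, on both strands. The 10 summits beside snoRNA genes and the 36 at host starts share 7 peaks. The 8-base word with the largest difference in share between IDR summits and flanks, ACAGTTTG with its reverse complement, occurred in 166 of 2962 IDR summit windows (5.6%), in 1 of the 36 host summits and in 0 of the 10 summits beside snoRNA genes. The DRE word TATCGATA occurred in 3 of the 10, at RpL28, RpS12 and RpS29, which are also the 3 of the 36 host summits that hold it, against 4.48% of 19275 protein-coding start windows of the same length and 0.878% of all IDR summits. Its centre lay 25, 5 and 23 bp from the summit at these 3 genes. The word GGTCACAC, a core of the promoter element Motif 1, was in none of the 10 and in 3 of the 36 host summits, against 4.67% of protein-coding starts. Mean GC content was 43.3% in the 10 windows and 43% in the host windows, against 34.6% in all IDR windows. The GC content of other protein-coding starts, or of IDR summits at them, was not counted. A match is a run of letters and not a site, and no match says only that the letters are not in the window.

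The proteins that act with snoRNAs were looked at as a list of 16 genes. Of the box C/D core proteins nop5 was bound, with a signal of 104 and no region in replicate 1, while Fib, the fibrillarin gene, Nop56 and hoip were not. Of the H/ACA core proteins NHP2 was bound, with 130 in the IDR list, 55.1 in replicate 1 and 91.2 in replicate 3, and Nop60B, Nop10 and Gar1 were not. Among 8 assembly and nucleolar factors pont, which encodes an ATPase of the complex that assembles snoRNPs, was bound with 194, and Nopp140, CG10341, CG10055, rept, spag, Nop17l and coil were not. That makes 3 of 16, beside the 10.9% of protein-coding genes given above. The gene nop5 is itself a host, and so are Fib and Nop60B, of which Fib had a pooled region of signal 33 and Nop60B none in any list.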

How the data were processed

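CG6654-eGFP ChIP-seq lists from 2 biological replicates were used. Per the labels, chromatin was sonicated to a size range of 200 to 800. The authors deposited narrowPeak lists on dm6: an IDR list, a pooled list and a list for each replicate, with the last 3 of 30000 regions. The deposited signal is a score whose scale is not stated, and the authors also deposited a −log10 q-value. The score was used only to rank and describe regions, and the deposited summit offset gave summit positions. Sources used here name no aligner, no peak caller and no IDR threshold.

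Summits were compared with every annotated transcript start of Ensembl release 115, whose coordinates are those of dm6, leaving out transposable elements. Ribosomal protein genes were chosen by symbol, as those that begin with RpL, RpS or RpLP and a number, and sta. Paralogues with such symbols were kept. The Wilson intervals are at 95% and cover counting over genes only. The members, classes and lists were chosen with earlier results of these data known, and no test across genes was run, since there is 1 group. Genes were named by these rules: all bound snoRNA genes, the nearest 10 at 501 to 1000 bp, those in every list but the IDR list, the first 20 bound hosts by signal, the 5 hosts with most snoRNA genes, and the list of snoRNA-associated proteins. Other genes were named after their values were seen. Sequences were read from the RefSeq Release 6 genome. Words were counted within 50 bp of summits and starts. The counting was tested on simulated positions. Python 3.11.15, scipy 1.17.1 and matplotlib 3.10.9 were used. Other windows, stricter peaks, single replicates, gene bodies, merged genes and other host definitions were tried. Values of 1 host gene are not reported here.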

Additional observations from a re-analysis of the deposited data

How the results depend on the processing

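The count of 11 bound snoRNA genes was 1 with a window of 250 bp and 39 with 1000 bp. It was 5 in the upper 50% of IDR peaks by signal, and 0 when a region had to overlap the snoRNA gene. Using as many top-ranked regions of a single replicate gave 5 to 9, the lower without replicate 3. For the upper 50% and the single replicates no share of all genes was counted beside these numbers or the host numbers below. The count of peaks also at a protein-coding start, 6 of 10, was 0 of 1 at 250 bp and 22 of 26 at 1000 bp, with both windows changed together. It was 3 of 4 in the upper 50%, and 1 to 6 with single replicates (1 of 4 without replicate 3, 6 of 8 without replicate 1). The count of 36 bound hosts was 23 in the upper 50% and 19 to 36 with single replicates. It moved to between 30 and 38 with other windows, with the outermost 5' end of each host (32) and with hosts on either strand (38 of 99). The top-ranked pooled regions gave the main counts, 11 snoRNA genes, 6 peaks and 36 hosts. At all of these the IDR and pooled lists held the same signal and rank, so this agreement is no separate check. Merging snoRNA genes within 1000 bp gave 10 of 108 clusters. Of the 11 bound snoRNA genes 6 were also bound by the replicate 3 regions and 4 by those of replicate 1, where only 19 of the 36 hosts were. No paired analysis was possible because there is 1 group and no comparison between groups. The lists hold no read totals, and a region missing from the replicate or pooled list may rank below the 30000 regions kept.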

Other observations

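The 17 scaRNA genes, which guide modification of spliceosomal RNAs in Cajal bodies and are named apart from the snoRNA genes, had no summit within 500 bp in the IDR list or in the pooled list. Of all genes 9.13% had one in the IDR list and 34% in the pooled list. The Wilson interval of 0 of 17 reaches 18.4%, so the IDR count cannot be told from the share of all genes. In replicate 1 scaRNA:MeU2-C41 had a region of signal 14.8, and in replicate 3 scaRNA:MeU1:95C-A24 and scaRNA:MeU1b-A234 had regions of signal 15.6 and 16.6. These are 5.88% and 11.8% of the scaRNA genes, against 25.3% and 41.6% of all genes. The nearest IDR summits lay 734 bp from scaRNA:MeU5-C46 and 834 bp from scaRNA:MeU1b-A234.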
